A study of Mus musculus with 16 samples.

Results

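The genes described here are 10 members of the Hippo-YAP pathway, followed across cultures of mouse male germline stem cells (GSCs), the cultured counterpart of the stem cells that sustain spermatogenesis. They are 10 of the 27128 genes in the deposited tables and were chosen by symbol: the coactivators Yap1 and Wwtr1, their DNA-binding partners Tead1 and Tead2, the kinase Lats2, and the target genes Ctgf, Cyr61, Ankrd1, Amotl2 and Axl. The choice was made with earlier results of these data known. Ctgf and Cyr61 are the older symbols of the genes now called Ccn2 and Ccn1. All 10 were found, and all 10 passed the filter of a mean of at least 1 CPM (the count scaled to a fixed library size) that left 14301 genes.

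In the Hippo pathway the MST kinases activate the LATS kinases, and LATS phosphorylates YAP and its relative TAZ (the product of Wwtr1), which keeps them out of the nucleus. In cells that spread on stiff or adhesive substrates and build actin fibres, YAP and TAZ enter the nucleus and act with TEAD proteins on genes such as Ctgf, Cyr61 and Ankrd1. Activity is thus set largely by phosphorylation and location of the proteins, which RNA levels do not measure. Lats2 and Amotl2 are targets whose products act back on the pathway.

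The cells came from B6;CBA-Tg(Pou5f1-EGFP)2Mnn/J mice at postnatal day 5.5, in which GFP reports the Pou5f1 (Oct4) promoter, and every culture began from Oct4+/KIT- germ cells. All were grown in StemPro-34 medium with GDNF, bFGF and EGF. The feeder-removal libraries were from cells on mouse embryonic fibroblasts (MEF) at day 0 and from cells 4 and 9 days after the move to Matrigel, a basement membrane extract. For the density libraries Matrigel was coated at 0.1 µg/cm2, where the culture was epithelial-like, or at 10 µg/cm2, where it was mesenchymal-like. The sorted libraries were GFP-low, GFP-mid and GFP-high cells from Matrigel at 10 µg/cm2. The inhibitor libraries were cells on MEF with DMSO, the solvent, or with UNC0638, an inhibitor of the histone methyltransferases G9a and GLP, at 0.5, 1 or 2 µM for 48 hours. Each of these 12 groups had 1 library, so differences between them could not be checked on replicates, and the 95% Clopper-Pearson intervals given cover counting error only. Feeders and GSCs are both mouse cells, and the labels do not say whether feeders were removed before RNA was extracted.

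Totals were 4335185 to 12019651 expected counts per library, and 3 counts, taken as the lowest visible level, stood for 0.238 to 0.724 CPM. The germ-cell markers Ddx4 (416 to 870.4 CPM) and Dazl (1434 to 2047 CPM) were high in all 12 libraries. Fibroblast markers varied far more: the summed TPM (a unit that also allows for gene length) of a list of 20 was 51.1 to 187 in the feeder-removal, epithelial-like and sorted libraries, 3517 in the mesenchymal-like library, and 1671, 612, 229 and 305 with DMSO and 0.5, 1 and 2 µM UNC0638. Macrophage markers summed to 2972, 2835 and 391 TPM in GFP-low, GFP-mid and GFP-high cells and to 15.1 to 72.8 TPM in the other 9 libraries. The 6 Sertoli cell markers that were matched summed to 2.19 to 16.9 TPM, with Amh at or below 0.229 CPM in every library but Sox9 at 0.634 to 22.7 CPM. The 7 endothelial markers summed to 10.4 to 28.6 TPM, with Cdh5 at or below 1.37 CPM, Pecam1 at 3.30 to 11.0 CPM and Flt1, chosen after its values were seen, at 13.3 to 83.6 CPM. In such bulk RNA, more cells of a type and more RNA per cell cannot be told apart.

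TEAD proteins recognise a short motif with the core GGAATG. The 250 bases before the annotated start of 4 target genes are shown because they hold that core and because these genes were all higher in the density comparison described next. They are from RefSeq on GRCm38.p6, the assembly that corresponds to the mm10 of the submitters' processing notes. Each is read 5′ to 3′ along the gene, with the core in capitals, as GGAATG or, where it lies on the opposite strand, as CATTCC. The windows are chr3:145649986-145650235 on the minus strand for Cyr61, chr19:36119845-36120094 on the minus strand for Ankrd1, chr9:102717554-102717803 on the plus strand for Amotl2, and chr7:25788734-25788983 on the minus strand for Axl.
Cyr61: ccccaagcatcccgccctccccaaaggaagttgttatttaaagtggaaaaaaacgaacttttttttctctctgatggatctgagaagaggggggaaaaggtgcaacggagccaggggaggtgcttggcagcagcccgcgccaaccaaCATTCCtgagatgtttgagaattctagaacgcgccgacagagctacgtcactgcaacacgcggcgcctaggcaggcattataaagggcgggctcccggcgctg
Ankrd1: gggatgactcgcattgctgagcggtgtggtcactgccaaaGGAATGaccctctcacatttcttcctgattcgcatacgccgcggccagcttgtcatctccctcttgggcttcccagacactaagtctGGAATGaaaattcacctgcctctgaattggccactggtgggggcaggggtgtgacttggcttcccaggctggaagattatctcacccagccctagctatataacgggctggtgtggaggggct
Amotl2: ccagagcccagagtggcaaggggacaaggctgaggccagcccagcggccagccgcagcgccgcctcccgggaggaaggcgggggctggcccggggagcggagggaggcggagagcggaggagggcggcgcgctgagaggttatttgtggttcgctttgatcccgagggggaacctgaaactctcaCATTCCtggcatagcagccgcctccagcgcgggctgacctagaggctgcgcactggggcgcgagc
Axl: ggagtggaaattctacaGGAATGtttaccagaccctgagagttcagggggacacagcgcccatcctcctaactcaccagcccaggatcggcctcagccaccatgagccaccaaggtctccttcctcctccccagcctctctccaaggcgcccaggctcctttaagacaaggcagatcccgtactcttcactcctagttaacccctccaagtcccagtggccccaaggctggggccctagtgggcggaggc

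The core began 103 bases before the start of Cyr61, 210 and 123 bases before that of Ankrd1, 65 bases before that of Amotl2 and 233 bases before that of Axl. Both strands were searched; no other motif was. Of the 10 members, 8 had an entry in the table (Ctgf and Tead1 did not), and 6 of the 8 held the core, Yap1 and Wwtr1 being the other two. Tead2 and Lats2 did not hold these letters in this window. The core was present in 14.4% of all 27025 genes with an entry and in 12.6% of all 32851 windows. A match describes the sequence and does not show that a TEAD protein was bound.

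The density comparison set the mesenchymal-like state on dense Matrigel beside the epithelial-like state on sparse Matrigel. The targets were far higher in the mesenchymal-like library, while the coactivator transcripts were within 2-fold. At least 2-fold higher were 6 of the 10 members (Ctgf, Cyr61, Ankrd1, Axl, Amotl2 and Tead1), against 10.7% of all genes tested, and none was 2-fold lower. Here and in all comparisons that follow, 2-fold refers to the ratio of CPM + 1, in which the added 1 draws genes of low CPM towards no change. The median log2 ratio of CPM + 1 was 2.03 for the 10 members and -0.06 for all genes tested.

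Ctgf, a secreted matricellular protein widely used as a readout of YAP activity, was at 11.7 CPM (50 counts) in the epithelial-like library and 532 CPM (2202 counts) in the mesenchymal-like library. That is 45.3-fold higher, with an interval of 34.2 to 61.2. Cyr61, of the same CCN family and a ligand of integrins, was at 4.93 and 269.9 CPM, 54.8-fold higher (interval 35.7 to 88.8). On the scale of CPM + 1 the log2 ratios were 5.39 for Ctgf and 5.51 for Cyr61.

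Ankrd1, an ankyrin-repeat protein known from muscle, went from 8 counts (1.88 CPM) to 402 counts (97.1 CPM). Its 51.7-fold difference had a wide interval, 26.0 to 121, since the lower library held so few reads. It overlapped those of Ctgf and Cyr61, so the order of these 3 genes was not resolved. Axl, a receptor tyrosine kinase, was at 20.4 and 300.4 CPM, 14.7-fold higher (interval 11.8 to 18.5). Amotl2, an angiomotin-like protein that binds YAP and restrains it, was at 34.5 and 161 CPM, 4.66-fold higher (interval 3.89 to 5.61). The mesenchymal-like value was the highest of all 12 libraries for each of these 5 targets.

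The upstream members differed little. Yap1 was at 20.9 CPM (89 counts) on sparse and 27.3 CPM (113 counts) on dense Matrigel, and the log2 ratio of 0.37 (-0.03 to 0.80) did not exceed counting error. Wwtr1 was at 45.1 and 50.9 CPM, a log2 ratio of 0.17 (-0.11 to 0.47), likewise within counting error. Both depended on the scaling: after centring on the germ-cell markers the log2 ratios were 0.73 for Yap1 and 0.53 for Wwtr1, and intervals moved by the same shift would lie above 0. Lats2, both a kinase of the pathway and a target, was at 111 and 141 CPM, a log2 ratio of 0.34 (0.17 to 0.53), or 0.71 with that centring, and so far smaller than for the other targets.

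Of the TEAD members Tead1 passed 2-fold and Tead2 did not. Tead1 was at 2.58 CPM (11 counts) and 12.1 CPM (50 counts), a log2 ratio of 1.87 (1.26 to 3.32). Tead2 was at 73.9 and 62.5 CPM, a log2 ratio of -0.24 (-0.48 to 0.00) that became 0.12 with that centring. Per length, Tead2 was the more abundant of this pair in every library: its TPM was 38.6 times that of Tead1 in the epithelial-like and 7.02 times in the mesenchymal-like library.

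**Figure D1:**
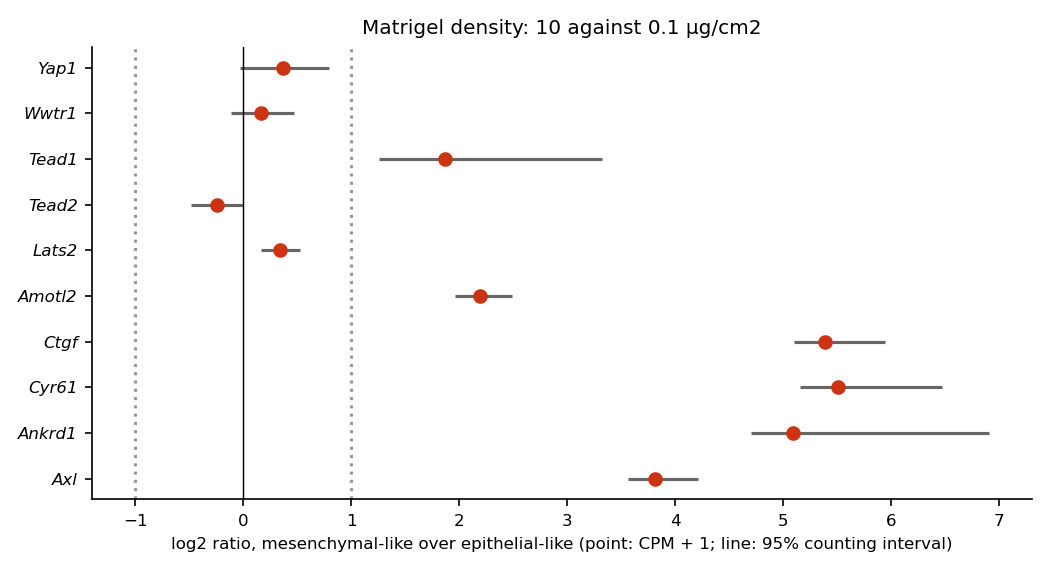
Log2 ratio of each gene between the mesenchymal-like and the epithelial-like library; points are ratios of CPM + 1, lines are 95% counting intervals without the pseudocount, and dotted lines mark 2-fold. Ctgf, Cyr61 and Ankrd1 lie above 5, Axl at 3.81, Amotl2 at 2.19 and Tead1 at 1.87, and the other four lie within 2-fold.

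**Figure D2:**
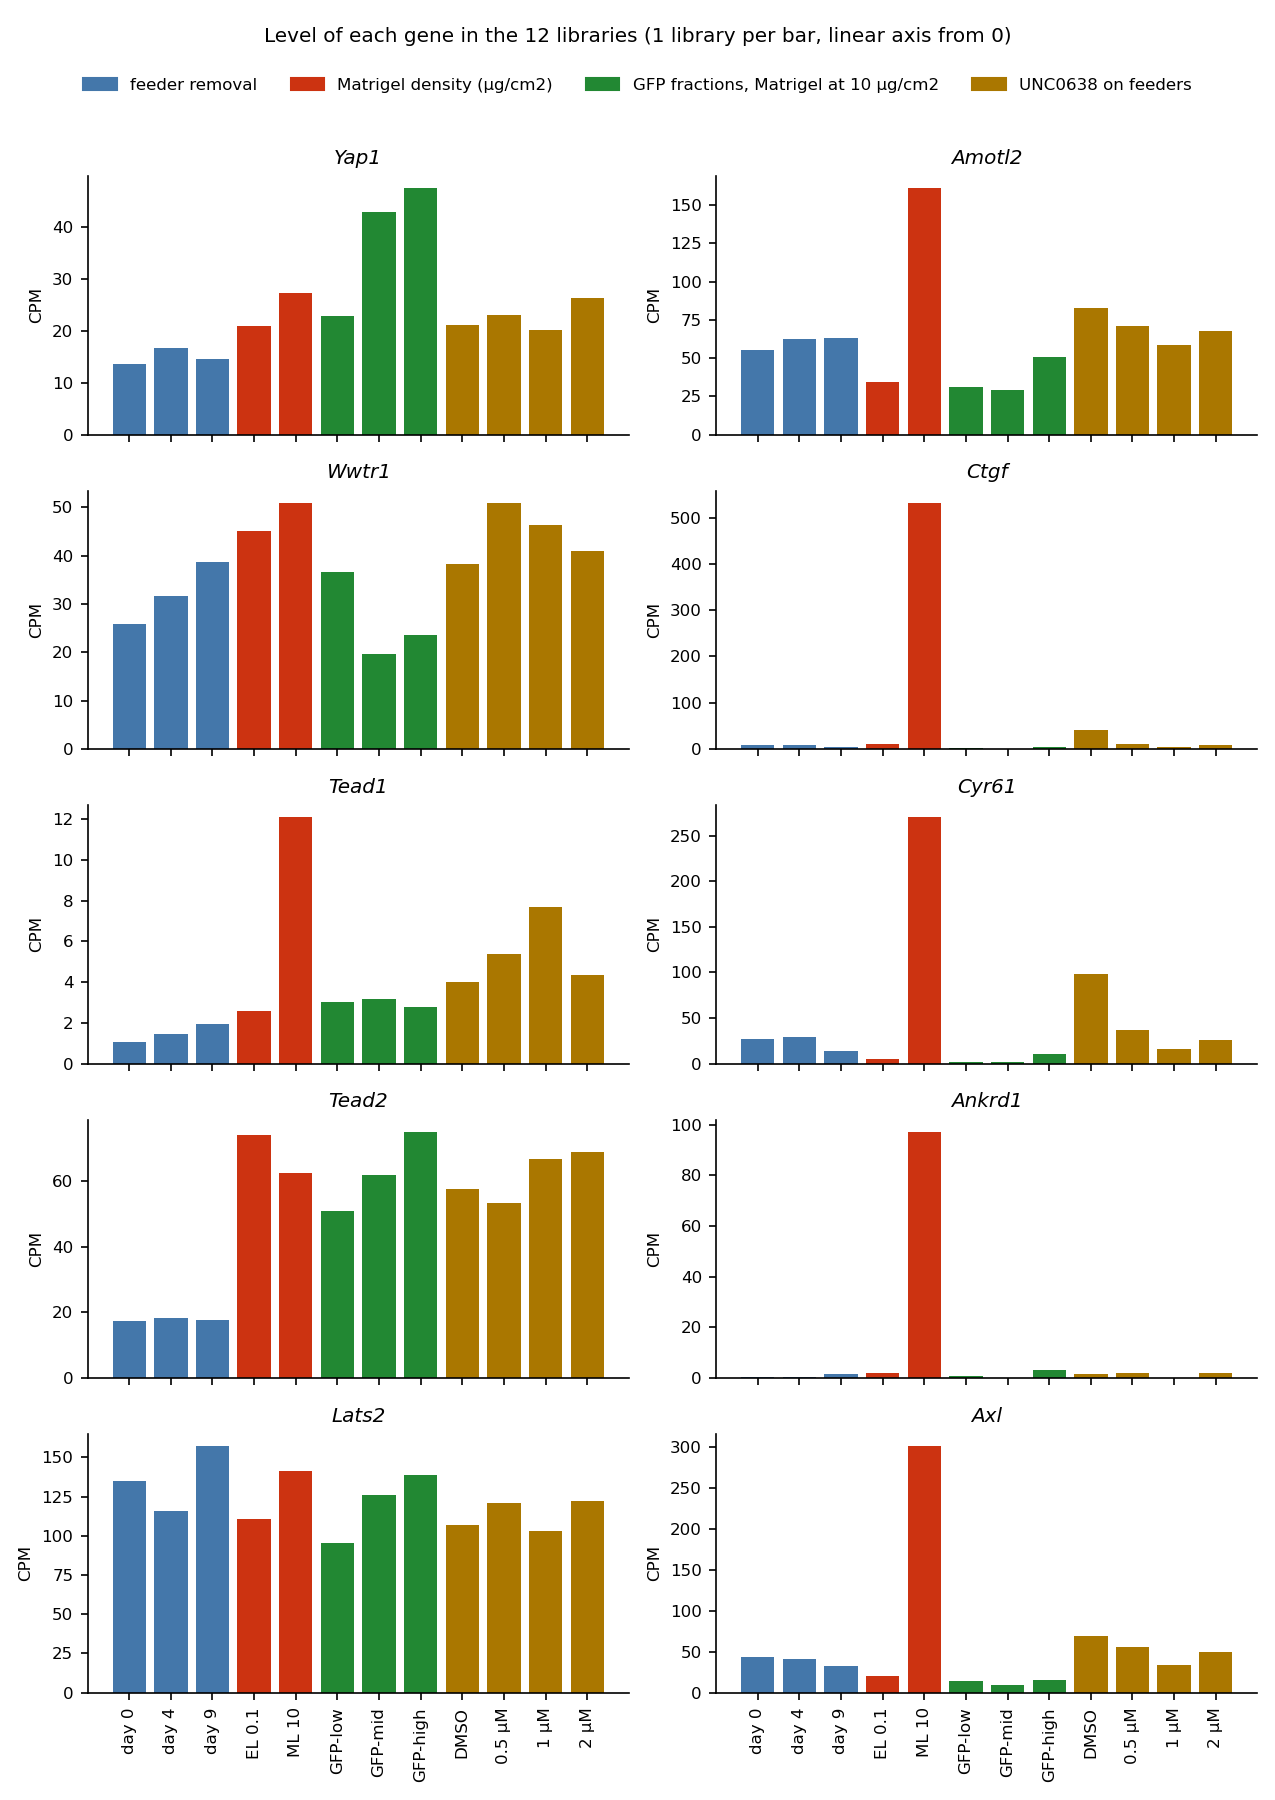
CPM of the 10 genes, 1 bar per library on a linear axis from 0, coloured by experiment; EL is epithelial-like and ML mesenchymal-like. The mesenchymal-like library is the highest for Tead1, Ctgf, Cyr61, Ankrd1, Amotl2 and Axl and about level with 0.5 µM UNC0638 for Wwtr1 (50.9 and 50.8 CPM), whereas Yap1 and Tead2 are highest in GFP-high cells and Lats2 at day 9.

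Other genes of the pathway were read from lists. Of 16 further YAP target genes, 15 passed the filter and 6 were at least 2-fold higher in the mesenchymal-like library, against 10.7% of all genes tested, with none 2-fold lower and a median log2 ratio of 0.62. Tgfb2, a TGF-beta ligand, was at 0.939 CPM (4 counts) and 31.1 CPM (129 counts). Fer1l3, the older symbol of the membrane protein gene Myof, was at 8.45 and 88.4 CPM, a log2 ratio of 3.24 (2.89 to 3.92). Ccdc80, which encodes a matrix protein, had 2 and 197 counts and Rbms3, an RNA-binding protein gene, 5 and 64 counts. The last 2 of the 6 were F3, the gene of tissue factor (1.70), and the kinase gene Nuak2 (1.46), which were named after their values were seen.

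Of 21 Hippo regulators, 20 were matched, 19 passed the filter and 3 were at least 2-fold higher, none lower. That share is near the 10.7% of all genes tested, and the median log2 ratio was 0.11. Amotl1, a further angiomotin-like gene, was at 2.82 and 60.4 CPM (log2 ratio 4.01, 3.59 to 5.39). Taok3, a kinase gene, was at 18.8 and 43.7 CPM (1.18, 0.83 to 1.62). The third was the protocadherin gene Dchs1, on 13 and 39 counts. The core kinases were within 2-fold and are named after their values were seen: Stk3 and Stk4, which encode the MST kinases, had log2 ratios of 0.28 and -0.31, and Lats1 had 23 and 19 counts.

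Among the other TEAD genes and the VGLL cofactors that bind TEAD proteins, 4 of 6 passed the filter and 2 were at least 2-fold higher, a count that was 1 with a pseudocount of 5 and 0 with a filter at 10 CPM. The share of all genes tested was 10.7%. Vgll3 had 2 and 143 counts (0.469 and 34.5 CPM). Tead3 was at 1.17 and 5.07 CPM on 5 and 21 counts. Tead4, on 3 and 5 counts, and Vgll4, at 29.3 and 25.6 CPM, were within 2-fold.

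Relatives and partners of the targets were also measured, and 4 of the 6 that passed the filter (of 7) were at least 2-fold higher, against 10.7% of all genes tested, with a median log2 ratio of 3.23. Wisp1, of the CCN family, was at 1.64 and 77.3 CPM, and Wisp2 of the same family had 2 and 67 counts. Gas6, the ligand of AXL, was at 34.5 and 265 CPM (log2 ratio 2.91, 2.69 to 3.20), and Pros1, a ligand of the related receptors, at 2.82 and 77.7 CPM (4.37, 3.96 to 5.75). Those receptors did not differ detectably at this depth: Tyro3 was at 32.9 and 32.8 CPM and Mertk at 11.7 and 12.1 CPM (log2 ratios with intervals of -0.35 to 0.35 and -0.55 to 0.64).

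Actin genes and genes of the SRF pathway, another pathway that responds to the actin skeleton, had a median log2 ratio of 2.20, and 8 of the 13 that passed the filter (of 14) were at least 2-fold higher, against 10.7% of all genes tested. Acta2 (smooth muscle actin) was at 2.11 and 189 CPM, Cald1 (caldesmon) at 4.93 and 264 CPM and Tpm2 (a tropomyosin) at 0.939 and 71.0 CPM, and Tagln (transgelin) had 2 and 259 counts. The transcription factor gene itself, Srf, was at 13.8 and 10.6 CPM.

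Fibroblast markers moved with these genes. Of that list 18 of the 19 that passed the filter were at least 2-fold higher in the mesenchymal-like library, against 10.7% of all genes tested, with a median log2 ratio of 4.45. Col1a1, a collagen chain, was at 84.0 and 2377 CPM, and Pdgfrb, a growth factor receptor, at 3.52 and 57.0 CPM. The germ-cell markers had a median of -0.36, with 13 of 15 lower and none 2-fold. Per 100 TPM of fibroblast markers, Ctgf was at 5.89 and 9.78 TPM, Cyr61 at 2.88 and 5.81 TPM and Ankrd1 at 1.27 and 2.42 TPM on sparse and on dense Matrigel, higher in the second. Counting error was not carried into this measure, and the sparse Ankrd1 value rested on 8 counts. On the same measure Amotl2 was at 9.39 and 1.60 TPM, Axl at 5.66 and 3.04 TPM and Lats2 at 24.2 and 1.13 TPM, lower in the second. Macrophage markers summed to 34.4 and 72.8 TPM, and Sox9, which is not specific to Sertoli cells, was at 4.69 and 22.7 CPM. The part of these other markers in the target differences was not tested.

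**Figure D3:**
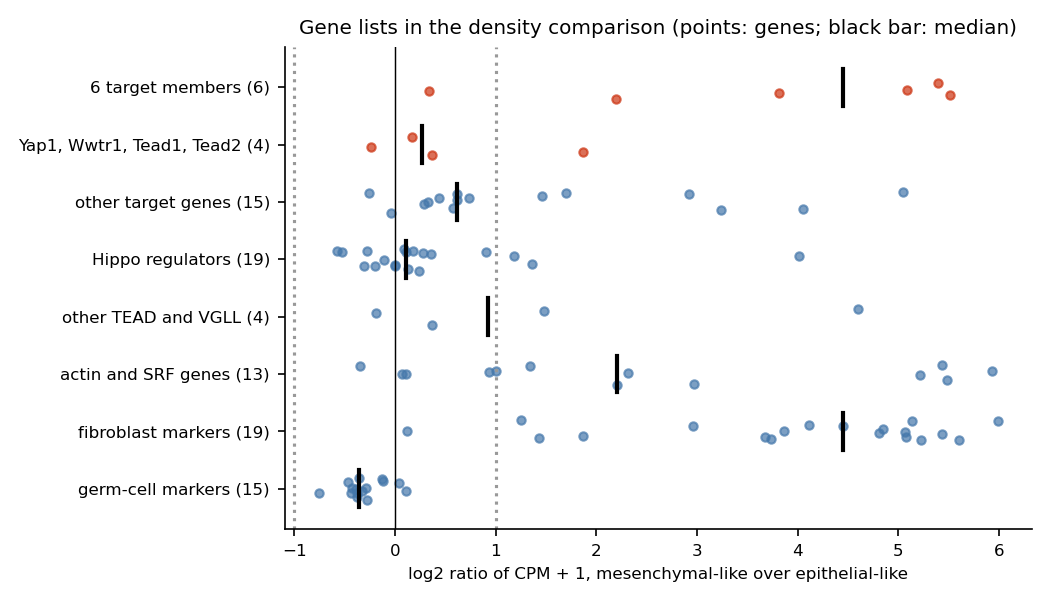
Log2 ratio of CPM + 1 between the mesenchymal-like and the epithelial-like library for the genes of each list that passed the filter; points are genes, bars are medians and dotted lines mark 2-fold. The median is 4.45 for fibroblast markers, 0.62 for the 15 other target genes, 0.11 for the 19 Hippo regulators and -0.36 for germ-cell markers.

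The feeder culture with DMSO gives the same genes at a high fibroblast level without dense Matrigel, in another experiment, so that batch and condition cannot be told apart. Summed fibroblast TPM was 2.10 times as high in the mesenchymal-like as in the DMSO library. Its single markers spread widely: of the 19 that passed the filter 6 were lower and 13 higher in the mesenchymal-like library, with CPM ratios from 0.136 for Lum, the lumican gene, to 4.39 for Sparc, a matricellular protein gene. Ctgf was 13.3-fold higher in the mesenchymal-like library (interval 11.5 to 15.4), at 532 against 40.1 CPM. Ankrd1 was at 97.1 against 1.60 CPM, 60.8-fold higher (30.6 to 142). Axl was 4.32-fold higher (3.84 to 4.88), Cyr61 2.75-fold (2.47 to 3.07) and Amotl2 1.95-fold (1.72 to 2.21), all 3 inside the range of the single markers. Whether the targets differ from the markers was not tested.

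**Figure D4:**
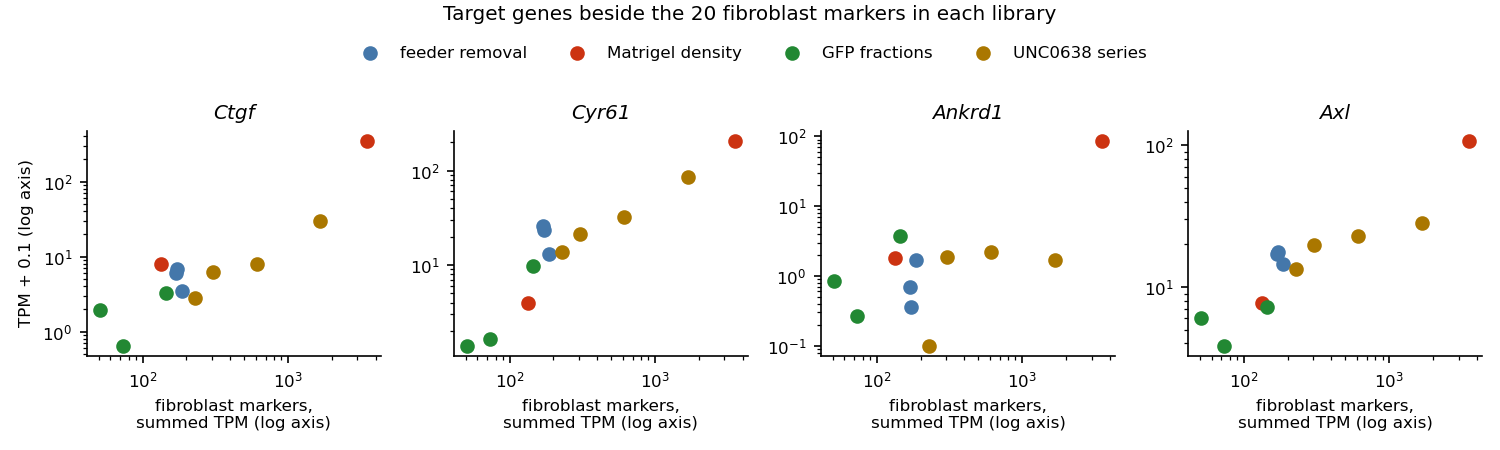
TPM + 0.1 of Ctgf, Cyr61, Ankrd1 and Axl against the summed TPM of the 20 fibroblast markers, 1 point per library, on logarithmic axes. The mesenchymal-like library lies at the top right of each panel (before the added 0.1, 344, 204, 85.0 and 107 TPM at a sum of 3517); for Ankrd1 the DMSO library, at a sum of 1671, lies among the low libraries at 1.60 TPM.

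The sorted fractions grew on Matrigel at the same 10 µg/cm2 as the mesenchymal-like culture, and their 5 targets other than Lats2 were lower than in it. Ctgf was at 2.51, 0.713 and 3.82 CPM in GFP-low, GFP-mid and GFP-high cells (20, 9 and 36 counts), all below the 11.7 CPM of the epithelial-like culture. Cyr61 was at 1.50, 1.74 and 10.1 CPM and Ankrd1 at 0.752, 0.158 and 3.29 CPM in the same order. For both, GFP-high cells were above and the other fractions below the epithelial-like culture (4.93 and 1.88 CPM). For Ankrd1 this order rested on 6, 2 and 31 counts against 8. No step between neighbouring libraries from GFP-high cells down was resolved for Ankrd1. Compared with GFP-high cells, the unsorted mesenchymal-like culture had 139-fold more Ctgf (interval 100.2 to 199), 26.8-fold more Cyr61 (21.7 to 33.4) and 29.5-fold more Ankrd1 (20.5 to 44.0). Axl was at 14.7, 8.87 and 15.8 CPM and Amotl2 at 31.3, 29.0 and 50.5 CPM, against 20.4 and 34.5 CPM in the epithelial-like culture. Fibroblast markers summed to 51.1, 73.2 and 144 TPM in the fractions and 3517 TPM in the unsorted culture. The cultures belong to different experiments, so sorting and batch cannot be told apart.

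Between the fractions, 3 members were at least 2-fold higher in GFP-high than in GFP-low cells (Cyr61, Ankrd1 and Yap1), against 6.94% of all genes tested, and none was 2-fold lower. Yap1 was at 22.9, 42.9 and 47.5 CPM in GFP-low, GFP-mid and GFP-high cells (183, 542 and 447 counts), and the last 2 were its highest levels in the 12 libraries. Its log2 ratio of high to low was 1.02 (0.80 to 1.30), and 0.91 with a pseudocount of 5. Wwtr1 took the opposite direction, with 36.6, 19.7 and 23.5 CPM and a log2 ratio of -0.62 (-0.90 to -0.39). Per length, Wwtr1 was 1.38 times Yap1 in GFP-low cells and 0.396 and 0.426 times in GFP-mid and GFP-high cells, whereas in the 9 libraries outside the sort it was 1.34 to 2.31 times.

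Tead2 and Lats2 had the same order as Yap1. Tead2 was at 50.7, 61.8 and 74.9 CPM (log2 ratio of high to low 0.56, 0.39 to 0.75) and Lats2 at 95.4, 126 and 139 CPM (0.54, 0.41 to 0.67). Tead1, at 3.01, 3.17 and 2.76 CPM, did not differ detectably between high and low (-0.09, -0.98 to 0.74). Its sign changed under 2 of the alternative settings, the deposited TPM (0.02) among them.

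Ctgf, Ankrd1, Axl and Amotl2 had their lowest value of the fractions in GFP-mid cells, and these genes and Cyr61 had their highest in GFP-high cells. From GFP-low to GFP-mid the intervals of Ankrd1 (-5.59 to 0.24, on 6 and 2 counts) and Amotl2 (-0.35 to 0.12) included no change. From GFP-low to GFP-high those of Ctgf (-0.22 to 1.47) and Axl (-0.25 to 0.47) did. Cyr61 had a log2 ratio of high to low of 2.15 (1.87 to 3.75) on 95 and 12 counts. Ankrd1 had 1.29 (0.85 to 3.68) on 31 and 6 counts, and 0.53 with a pseudocount of 5. From GFP-low to GFP-mid, 1 of the 10 members was at least 2-fold lower, Ctgf, against 0.685% of all genes tested (-1.03, -3.13 to -0.61); it rested on 20 and 9 counts and was -0.88 with the deposited TPM and -0.87 after centring on the germ-cell markers. Of 19 Hippo regulators 3 were at least 2-fold higher in GFP-high than in GFP-low cells, against 6.94% of all genes tested, and 0 were 2-fold lower. They were Wwc2, which acts on LATS (19.7, 37.2 and 55.0 CPM across the fractions), Sav1, the scaffold of the MST kinases (2.76, 9.34 and 8.49 CPM), and Amotl1 (6.02, 8.71 and 14.9 CPM). By any amount 8 were higher and 11 lower, among the latter Frmd6 at 242, 149.7 and 125 CPM. Of the 15 other targets 2 were at least 2-fold higher, against the same 6.94%, and 0 were 2-fold lower. Igfbp3, which encodes a binding protein of insulin-like growth factors, and Gadd45a, a stress-response gene, were 1.08 and 1.00 higher on the log2 scale in GFP-high than in GFP-low cells.

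Markers of other cells differed between the fractions too. All 14 macrophage markers were at least 2-fold lower in GFP-high than in GFP-low cells, against 2.59% of all genes tested, with Mpeg1, a macrophage perforin, at 66.7, 54.3 and 3.93 CPM and Csf1r, the macrophage growth factor receptor, at 52.5, 50.3 and 5.20 CPM. Mpeg1 and Csf1r were at or below 0.966 CPM in every library outside the sort. Such genes passed the filter only through the sorted libraries, so their count and the share of all genes are not a like comparison. Of the fibroblast markers 9 of 19 were at least 2-fold higher in GFP-high cells, against 6.94% of all genes tested, and 0 were 2-fold lower. Col1a1 was at 22.2, 50.9 and 104 CPM. By any amount 14 of the 19 were higher and 5 lower, among the latter Lox at 12.9, 6.26 and 6.58 CPM. The part of the macrophage and fibroblast markers in the values of the members was not tested.

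The inhibitor series compared GSCs on feeders with and without a block of G9a and GLP. Ctgf and Cyr61 were at least 2-fold lower at every dose, and the coactivators stayed within 2-fold. At 0.5 µM 2 of 10 members were at least 2-fold lower (Ctgf and Cyr61) against 2.13% of all genes tested, at 1 µM 4 of 10 (these and Ankrd1 and Axl) against 4.12%, and at 2 µM 2 of 10 (Ctgf and Cyr61) against 3.59%. None was 2-fold higher. The 3 comparisons share the DMSO library.

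The DMSO library had 40.1 CPM of Ctgf, against 10.8, 3.66 and 8.48 CPM with 0.5, 1 and 2 µM (201, 56, 21 and 37 counts). Cyr61 was at 98.0 CPM and at 37.2, 15.9 and 25.4 CPM (491, 193, 91 and 111 counts). Both were lowest at 1 µM, with log2 ratios there of -3.14 (-4.18 to -2.80) for Ctgf and -2.55 (-2.96 to -2.30) for Cyr61.

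Axl was at 69.5 CPM and at 56.2, 33.3 and 49.9 CPM, and Amotl2 at 82.6 CPM and at 70.9, 58.3 and 67.8 CPM, so that both were also lowest at 1 µM. Axl passed 2-fold there (-1.04, -1.32 to -0.80), though not with a pseudocount of 5 (-0.96). Ankrd1 had 8, 11, 0 and 8 counts across DMSO and the rising doses, at least 3.05-fold lower at 1 µM if the floor of 3 counts is set against the 8 counts taken as exact. The counting interval, which allows for the error of both, reached up to a ratio of 0.512. With a pseudocount of 5 its log2 ratio there was -0.40.

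The upstream members were within 2-fold at every dose. The DMSO library had 21.2 CPM of Yap1, against 23.1, 20.2 and 26.3 CPM at the rising doses, with an interval that included no change at each dose. Wwtr1 was at 38.3 CPM and 50.8, 46.4 and 41.0 CPM, Lats2 at 107 CPM and 121, 103 and 122 CPM, and Tead2 at 57.5 CPM and 53.3, 66.7 and 68.7 CPM. Tead1 was highest at 1 µM, at 7.68 CPM (44 counts) against 3.99 CPM (20 counts) with DMSO, a log2 ratio of 0.80 (0.15 to 1.78).

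Among the lists, the CCN relatives and AXL partners had 1, 5 and 3 of 6 genes at least 2-fold lower at 0.5, 1 and 2 µM, and none higher. Wisp1 went from 18.4 CPM in the DMSO library to 2.50, 1.40 and 2.98 CPM. Of the 15 other target genes 1, 2 and 3 were at least 2-fold lower, Ccdc80 at every dose (37.9 CPM with DMSO, then 11.2, 4.54 and 10.5 CPM). Gadd45a was more than 2-fold higher at 1 µM, at 34.9 against 16.0 CPM (1.08, 0.75 to 1.52). Hippo regulators had 0, 1 and 0 of 19 at least 2-fold lower. These list counts stand beside 2.13%, 4.12% and 3.59% of all genes tested, and the Hippo count is near those shares.

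Fibroblast markers were lower more broadly, 14, 19 and 17 of 19 by at least 2-fold, with Col1a1 at 1088, 302, 137 and 149 CPM. Their sum was lowest at 1 µM, as Ctgf and Cyr61 were. Per 100 TPM of fibroblast markers, Cyr61 was at 5.08, 5.25, 5.93 and 7.03 TPM across DMSO and the rising doses and Ctgf at 1.78, 1.30, 1.17 and 2.00 TPM. On the same measure Axl was at 1.70, 3.74, 5.86 and 6.50 TPM, Amotl2 at 1.98, 4.63, 10.1 and 8.67 TPM, Lats2 at 2.06, 6.31, 14.3 and 12.5 TPM and Ankrd1 at 0.0957, 0.347, 0 and 0.587 TPM. The part of the fibroblast markers in the target values was not tested.

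**Figure D5:**
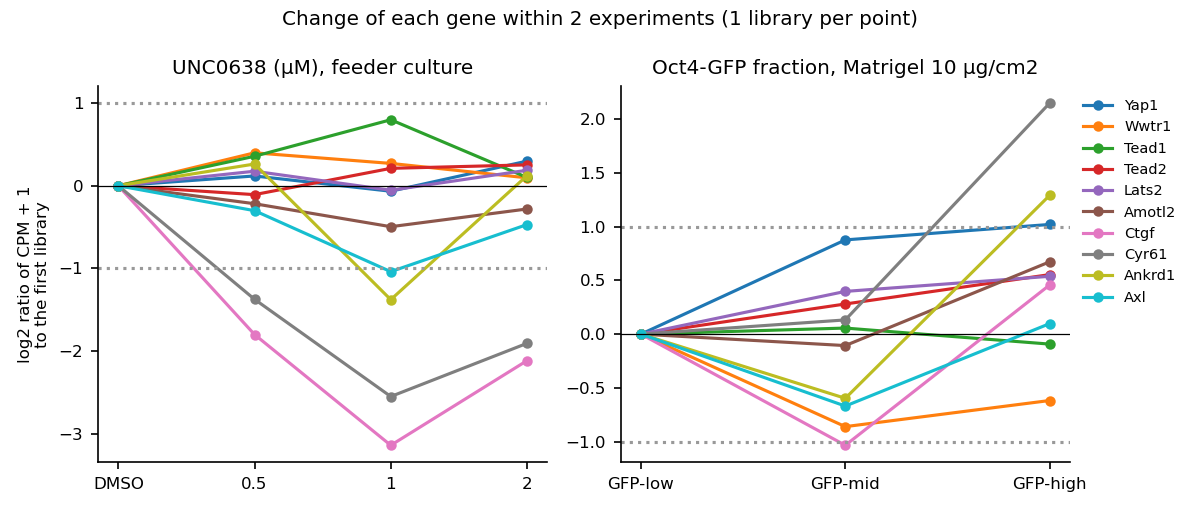
Log2 ratio of CPM + 1 of the 10 genes to the DMSO library in the inhibitor series and to GFP-low cells in the sorted series, 1 library per point, with dotted lines at 2-fold. Ctgf and Cyr61 reach -3.14 and -2.55 at 1 µM; Yap1 is at 1.02 and Wwtr1 at -0.62 in GFP-high cells.

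The feeder-removal series followed GSCs after they left the feeders. On the CPM + 1 scale no member differed 2-fold from day 0 at day 4, against 2.28% of all genes tested, or at day 9, against 2.60%. Ctgf was at 9.20, 7.96 and 4.23 CPM at days 0, 4 and 9, and Cyr61 at 27.2, 29.5 and 13.7 CPM. Both were lower at day 9, with log2 ratios of -0.96 (-1.67 to -0.59) for Ctgf and -0.94 (-1.30 to -0.69) for Cyr61. Without the added 1 the day 9 CPM was 0.460 times that of day 0 for Ctgf (0.315 to 0.667) and 0.502 times for Cyr61 (0.407 to 0.618). Ctgf passed 2-fold with a pseudocount of 0.1 (-1.10), and both did after centring on the germ-cell markers (-1.04 and -1.02). Axl was at 43.2, 41.6 and 32.5 CPM (-0.40 at day 9, -0.62 to -0.19).

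Wwtr1 went the other way, at 25.8, 31.6 and 38.7 CPM, with a log2 ratio at day 9 of 0.57 (0.34 to 0.83). Ankrd1 had 2, 7 and 18 counts, a log2 ratio at day 9 of 0.97 that was 2.12 with a pseudocount of 0.1 and 1.05 with the deposited TPM. Yap1 (13.6, 16.6 and 14.5 CPM), Tead2 (17.4, 18.4 and 17.8 CPM) and Amotl2 (55.1, 62.4 and 63.0 CPM) stayed close to their day 0 level. Tead1 was at 1.04, 1.44 and 1.95 CPM (8, 17 and 24 counts), its lowest CPM in the 12 libraries, and Lats2 was at 135, 116 and 157 CPM. Among the lists, Acta2 was at 45.0 CPM at day 0 and 6.92 CPM at day 9 (-2.54, -3.06 to -2.36), and the target Nt5e, an ectonucleotidase gene, at 3.37 and 9.11 CPM (1.21, 0.81 to 2.11). The fibroblast sum was 172, 169.5 and 187 TPM.

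The DMSO library against the day 0 library, both from feeders without inhibitor, shows how far separate experiments differed. At least 2-fold higher with DMSO were 5 of 10 members (Ctgf, Cyr61, Tead2, Tead1 and Ankrd1), against 12.2% of all genes tested. Tead2 was at 57.5 against 17.4 CPM and was at or above 50.7 CPM in all 9 libraries outside the feeder-removal series. Ctgf was at 40.1 against 9.20 CPM, beside fibroblast sums of 1671 and 172 TPM.

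The order of the levels over the 12 libraries was resolved in part. For Ctgf, 4 of the 11 steps between neighbouring libraries had an interval that excluded equal levels: from the mesenchymal-like library to DMSO, from DMSO to the epithelial-like library, from day 4 to day 9, and from GFP-low to GFP-mid. For Cyr61 7 steps did, for Axl 5, for Amotl2 3, and for each of the other 6 members 1. For Ankrd1 that step was from the mesenchymal-like library to GFP-high cells (97.1 to 3.29 CPM), and for Yap1 from GFP-mid cells to the mesenchymal-like library (42.9 to 27.3 CPM).

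With the mean of each experiment subtracted, Ctgf, Cyr61, Ankrd1, Amotl2 and Axl ran together over the 12 libraries, with Pearson r of 0.86 to 0.97 among their 10 pairs, and of 0.51 to 0.93 over the 10 libraries without the density pair. Their r with Yap1 was 0.22 to 0.45, and -0.08 to 0.43 without the density pair. With Wwtr1 it was -0.11 to 0.21, and -0.42 to 0.16 without that pair. With Tead1 it was 0.50 to 0.72, but -0.79 to -0.38 without the density pair, so that relation rested on those libraries. The genes most like Ctgf were the collagen chaperone gene Serpinh1, the protease inhibitor gene Timp3 and the collagen gene Col6a1 (r of 0.99, 0.98 and 0.98). Those most like Cyr61 were Col8a1, Pcolce and Prss23, and those most like Axl were S100a4, Gsn and Fkbp10 (r of 0.98 for each). Without the density pair the r of these genes was 0.93 to 0.97 for Ctgf and 0.95 to 0.96 for Cyr61 but 0.86 to 0.87 for Axl. Yap1 was most like Igf2, Ddr1 and Cacnb3 (r of 0.95, 0.94 and 0.94), with 0.94 to 0.96 without the density pair. These values describe 12 libraries that share experiments and depth, among 9597 candidate genes.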

How the data were processed

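RNA was sequenced from 12 libraries prepared by a modified Smart-seq2 procedure, per the labels' protocols; a further 4 samples, of ATAC-seq, were not analysed here. The authors deposited expected counts and TPM per gene from RSEM, per the file headers; reads were trimmed with Trim Galore and the build was mm10, per the submitters' processing notes. The aligner and annotation release are not given in the sources used here. How RSEM divided reads between similar genes affects genes with relatives.

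Expected counts were rounded and scaled with TMM factors (0.912 to 1.07) in edgeR 4.0.16 under R 4.3.3; the alternative factors were from DESeq2 1.42.0. The filter was a mean of 1 CPM or more. Differences are log2 ratios of CPM + 1, which understates changes of low genes, and at least 2-fold counts as called; with 1 library per group there is no test. Since PCR copies were not told apart by molecular identifiers, the 95% intervals and the floor of 3 counts cover counting error alone. The steps were tested on simulated data. Python 3.11.15 with scipy 1.17.1 and matplotlib 3.10.9 was used.

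The members and lists were chosen with earlier results of these data known. From each list, up to 4 genes in each direction (2 outside the density comparison) were named, the largest ratios first, if at least 2-fold and with at least 50 counts in the higher library; other names were added after their values were seen. Patterns were compared among genes averaging 10 CPM or more. Alternatives were DESeq2 size factors, total counts, TPM as deposited, a pseudocount of 0.1 or 5, a filter at 10 CPM or none, and centring on the germ-cell list.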

Additional observations from a re-analysis of the deposited data

How the results depend on the processing

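No paired analysis was possible because each RNA group had 1 library. The count of members past 2-fold was 6 for Matrigel density under 7 of the 8 alternatives and 4 with a filter at 10 CPM, where 8 members were tested. At day 9 it was 0, but 1 with the deposited TPM, 2 with a pseudocount of 0.1 and 2 when centred on the germ-cell list. For GFP-mid against GFP-low cells it was 1, but 0 with TPM, 2 with a pseudocount of 0.1 and 0 with one of 5; after centring on the germ-cell list it was again 1, but Yap1 (1.04) in place of Ctgf (-0.87). With a pseudocount of 5 the 3 of GFP-high against GFP-low cells became 1, the 4 at 1 µM UNC0638 became 2, and the 5 of DMSO against day 0 became 3, also 3 with a filter at 10 CPM. Of 702 log2 ratios of members recomputed, 19 moved by more than 0.5 of the width of their counting interval, a tolerance that is wide for genes of few counts, and 0 ratios past 2-fold changed sign. The 702 include ratios under a filter at 10 CPM and under none, which equal the main ratio by construction. The member counts without a filter could not move either, since all 10 members had passed it. Of 720 recomputed counts for lists, 138 moved. Centring on the germ-cell list moved the median density ratio of all genes from -0.06 to 0.31. Across the alternatives the density log2 ratio was 4.79 to 5.88 for Cyr61, 3.89 to 5.62 for Ankrd1, 3.59 to 4.18 for Axl and 1.17 to 2.23 for Tead1. Depth limits Ankrd1, Ctgf in the sorted cells and Tead1, which had few counts.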
